A study of Mus musculus with 5 samples.

Results

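Mouse embryonic stem cells that spent 72 h without leukaemia inhibitory factor (LIF) were compared with cells of the same line that spent 72 h with it. The line, REX-1 RFP, carries a red fluorescent protein gene under the promoter of Rex1 (gene symbol Zfp42), and the reporter's own transcript was not analysed here. The members of the comparison are droplet barcodes with 500 or more detected genes: 9240 of the 10000 barcodes of the library named ND, labelled LIF negative, and all 10000 of the library named NS, labelled LIF positive. They make up 19240 of the 49074 such barcodes among 50000 in the series. The labels do not spell out NS and ND. All cultures were first grown with LIF. The 3 remaining libraries also had LIF for 72 h, together with sorbitol, a sugar alcohol that raises osmolarity, at 200, 250 or 300 mM. They are set beside ND because their depth is close to it, but their cells were under osmotic stress and are no matched controls.

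LIF binds a receptor made of the LIF receptor chain and gp130, which activates JAK kinases and, through them, the transcription factor STAT3. In mouse embryonic stem cells STAT3 switches on a set of naive pluripotency factors as well as its own feedback inhibitor. When LIF is withdrawn, embryonic stem cells leave the naive state, which resembles the epiblast before implantation, and pass through a formative state that resembles the epiblast soon after it, under the influence of FGF and ERK, Wnt and Nodal signals.

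Each condition is 1 library, so every value below compares libraries and no p-value is given; a difference of batch and a difference of condition cannot be told apart. UMIs (unique molecular identifiers, which count captured transcripts) were added up over these barcodes, and levels are CPM, the share of a library's UMIs times 1000000. NS held 22158653 UMIs in its kept barcodes and ND 7906116, with medians of 2135 and 827 UMIs per barcode, and the sorbitol libraries had medians from 801 to 939. Each library came with 10000 barcodes, and those kept spanned a narrow range, from 1897 to 6032 UMIs in NS and from 741 to 2262 in ND. Mitochondrially encoded genes took 3.98% of UMIs in NS and 4.98% in ND (5.61% to 6.13% with sorbitol), and ribosomal protein genes 28.4% and 25.4% (21.3% to 25.3%). NS and ND shared 48 barcode sequences, and pairs of the 5 libraries shared 34 to 54. The labelled cell type was checked against its markers, and all 6 embryonic stem cell markers (Pou5f1, Sox2, Nanog, Zfp42, Sall4 and Esrrb) stood above 5 CPM in both libraries, with sums of 1465 CPM in NS and 1723 in ND. The 7 fibroblast or feeder markers summed to 3.79 and 2.40 CPM, with 3 of them at 0 UMIs in each library. Primitive endoderm markers summed to 12.95 CPM in NS and 8.22 in ND, trophoblast markers to 24.0 and 32.6, neuroectoderm markers to 13.3 and 12.3, and mesoderm markers to 2.21 and 1.90.

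In ND, without LIF, 6 of 19 measured targets and feedback genes of STAT3, Socs3 and Klf4 among them, were lower than in NS and 5 were higher. Of 16 measured genes of the formative epiblast 12 were higher and 1 lower, and all 26 genes of the mitotic machinery stood within 1.5-fold. Among 9839 genes whose ND and NS levels averaged 5 CPM or more, 930 (9.45%) were at least 1.5-fold higher in ND and 592 (6.02%) at least 1.5-fold lower, and these are the genes called higher or lower below. Of the higher genes 159 reached 5 CPM in ND only, and of the lower genes 155 in NS only. The median log2 ratio of ND to NS was 0.08. At 2-fold, 240 genes were higher and 207 lower, and at 4-fold 17 and 29. The 95% interval of the ratio, which covers counting error only, left out a log2 ratio of 0 for 5362 genes (54.5%), most of them within 1.5-fold. The split of calls leans on the scaling: median-of-ratios scaling gave 760 higher and 702 lower, and taking CPM without mitochondrial and ribosomal protein genes gave 870 and 875. In these sums, fewer cells that express a gene and less of its RNA in each cell cannot be told apart. The plot of all genes shows the pattern in outline.

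**Figure D1:**
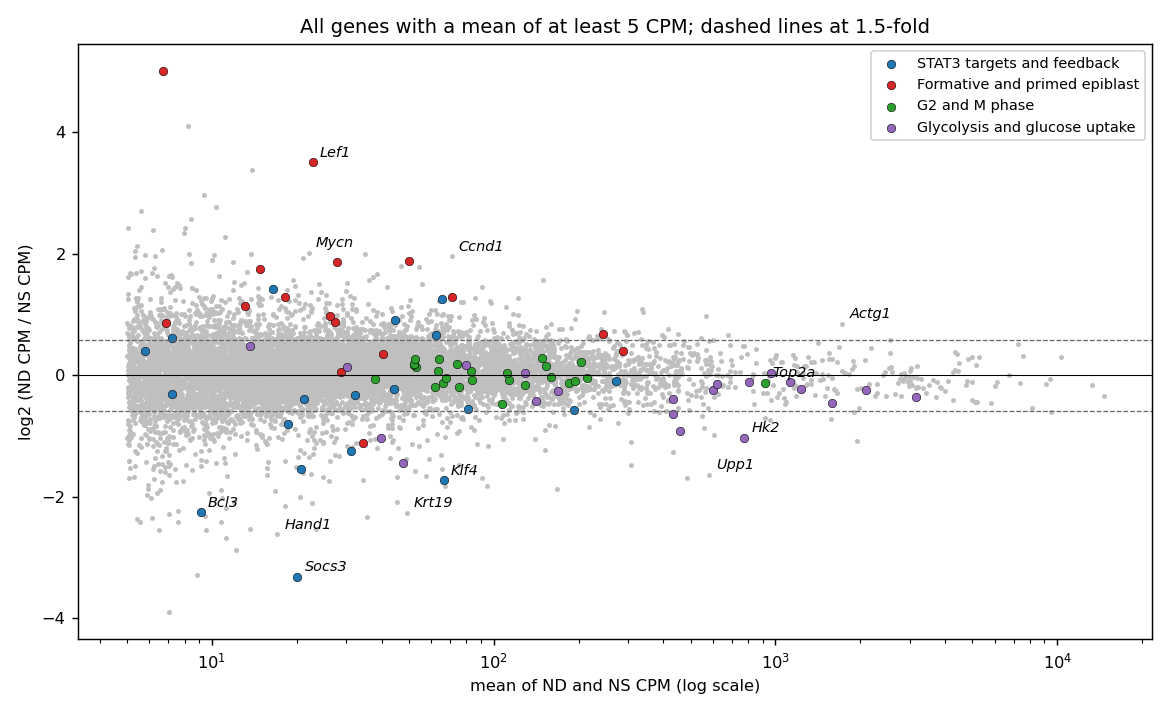
Each grey point is 1 of the 9839 genes, with the mean of ND and NS CPM on a log axis and the log2 ratio of ND to NS CPM on the vertical axis; dashed lines mark 1.5-fold and coloured points are members of 4 gene lists. Formative genes (red) lie mostly above the upper line with Lef1 at 3.50, Socs3 lies at -3.32, and all 26 genes of G2 and M phase (green) stay between the lines.

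The sorbitol libraries give a second reading, since they hold LIF at a depth near that of ND. Of 10222 genes that averaged 5 CPM or more over the 5 libraries, 195 (1.91%) stood in ND at least 1.5-fold above the highest of the 4 libraries with LIF, and 390 (3.82%) at least 1.5-fold below the lowest. Rankings here take genes that averaged 20 CPM or more over the 5 libraries and leave out mitochondrial and ribosomal protein genes and provisional gene symbols. Farthest above were then Ccnd1, Id3, Emb, Apela, Socs2, Cnn2, Platr10, Trim2, Lefty1 and Ina, from 3.88-fold down to 2.11-fold. Farthest below were Socs3, Hand1, Bcl3, Fbxo2, Lama1, Tns1, S100a6, Tbx3, Ypel2 and Grin1, from 9.95-fold to 3.34-fold. Under 20 CPM, Lef1 stood 11.3-fold and Mycn 4.05-fold above the highest library with LIF. These comparisons share the ND library with the comparison against NS, so the levels are given side by side and not as a second measurement.

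**Figure D2:**
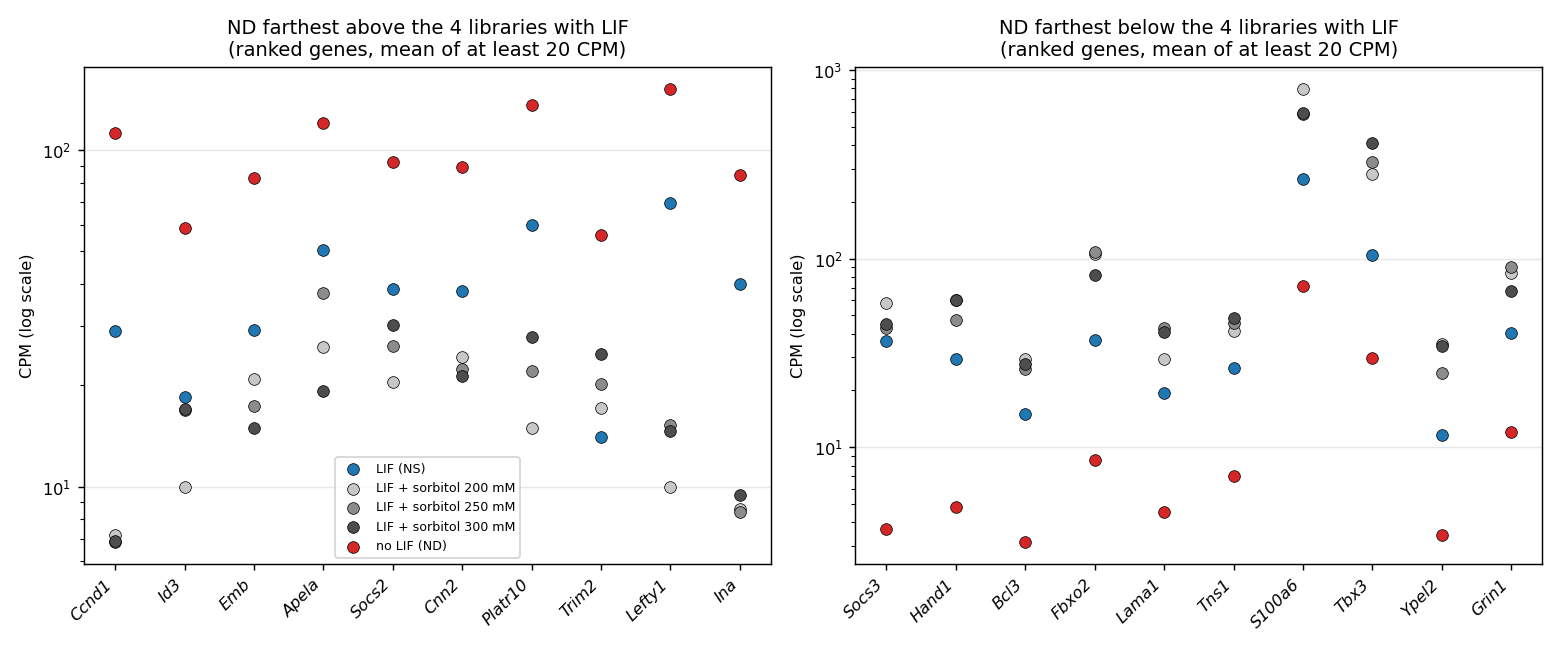
CPM on a log axis in each of the 5 libraries (1 point a library) for the 10 genes with ND farthest above, and the 10 with ND farthest below, all 4 libraries grown with LIF, among those ranked (mean of 20 CPM or more, no mitochondrial or ribosomal protein genes). Ccnd1 stands at 113 CPM in ND against 6.86 to 29.1 with LIF, and Socs3 at 3.67 CPM against 36.5 to 58.0.

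Transcripts of the signalling chain itself differed little, with a median log2 ratio of -0.00 (17 listed). Of 13 measured members 0 were higher and 1 lower, against 9.45% and 6.02% of all genes. That member was Stat3 (ENSMUSG00000004040; mm10 chromosome 11, 100885098 to 100939540), which encodes the transcription factor at the end of the chain. Stat3 stood at 43.5 CPM in NS, 19.2 in ND and 68.9, 53.5 and 68.4 CPM at 200, 250 and 300 mM sorbitol, so ND was the lowest of the 5 (log2 ratio to NS -1.18, -1.44 to -0.93). Lifr, the LIF receptor chain, was at 16.1 CPM in NS and 11.9 in ND (-0.44, -0.78 to -0.11), and Il6st, which encodes gp130, at 25.1 and 33.8 (0.43, 0.21 to 0.64). Jak1 was at 66 and 48.2 CPM, and Ptpn11, the phosphatase that links gp130 to ERK, at 66.5 and 66.4. None of these reached 1.5-fold. Of 14 members averaging 5 CPM or more over all libraries, 2 lay at least 1.5-fold below all 4 with LIF, 0 above. Stat3 was 1 of the 2.

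Targets and feedback genes of STAT3 went both ways: of 19 measured, 6 were lower in ND and 5 higher, against 6.02% and 9.45% of all genes, with a median log2 ratio of -0.33 against 0.08. All 6 lower members also lay at least 1.5-fold below each of the 4 libraries with LIF. For 2 of the 19, Socs3 and Bcl3, NS reached 5 CPM and ND did not. Socs3 (ENSMUSG00000053113; chromosome 11, 117966079 to 117970047), the feedback inhibitor that binds gp130, stood at 36.5 CPM in NS (34 to 39.1), 3.67 in ND (2.46 to 5.27) and 58, 42.9 and 45 over the sorbitol doses. ND held 29 UMIs of it and NS 809. Bcl3, a co-regulator of NF-kB, was at 15.1 CPM in NS, 3.16 in ND and 29.4, 26.1 and 27.6 with sorbitol, 4.77-fold lower than in NS. Klf4, a naive factor under direct STAT3 control, was at 102 CPM in NS, 30.9 in ND and 344, 407 and 395 with sorbitol, so the sorbitol libraries lay above NS and ND below it. The immediate early factor Egr1 (30.8 CPM in NS, 10.6 in ND, 43.8, 25.2 and 20.9 with sorbitol), the adhesion molecule Icam1 (43.8 in NS, 18.5 in ND and 85.6, 72 and 77.5 with sorbitol) and the AP-1 subunit Junb (23.7 in NS, 13.7 in ND and 28.9, 28.1 and 28.7 with sorbitol) completed the 6. Klf5 (log2 -0.57, -0.66 to -0.48) and Tfcp2l1 (-0.56, -0.70 to -0.42), naive factors that STAT3 also drives, were just within 1.5-fold.

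The 5 higher members were Socs2, Irf1, Pim2, Pim1 and Cebpd. Socs2, a relative of Socs3 that damps growth hormone signalling, was at 38.7 CPM in NS, 92 in ND and 20.5, 26.1 and 30.1 with sorbitol, highest in ND by 2.37-fold. Irf1, an interferon-responsive factor, was at 31.1 CPM in NS, 58.4 in ND and 12.6, 11.3 and 12.1 with sorbitol. Pim2, a survival kinase, was at 8.98 CPM in NS and 23.9 in ND, but at 29.8, 18.2 and 28.5 with sorbitol, so it was NS that stood low among the 5. Its relative Pim1 was at 48.3 in NS, 76.5 in ND and 64.9, 66.1 and 76.5 CPM with sorbitol, with ND level with the 300 mM library. Cebpd, a factor of the C/EBP family, was at 5.69 and 8.73 CPM (log2 0.62, 0.17 to 1.05).

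**Figure D3:**
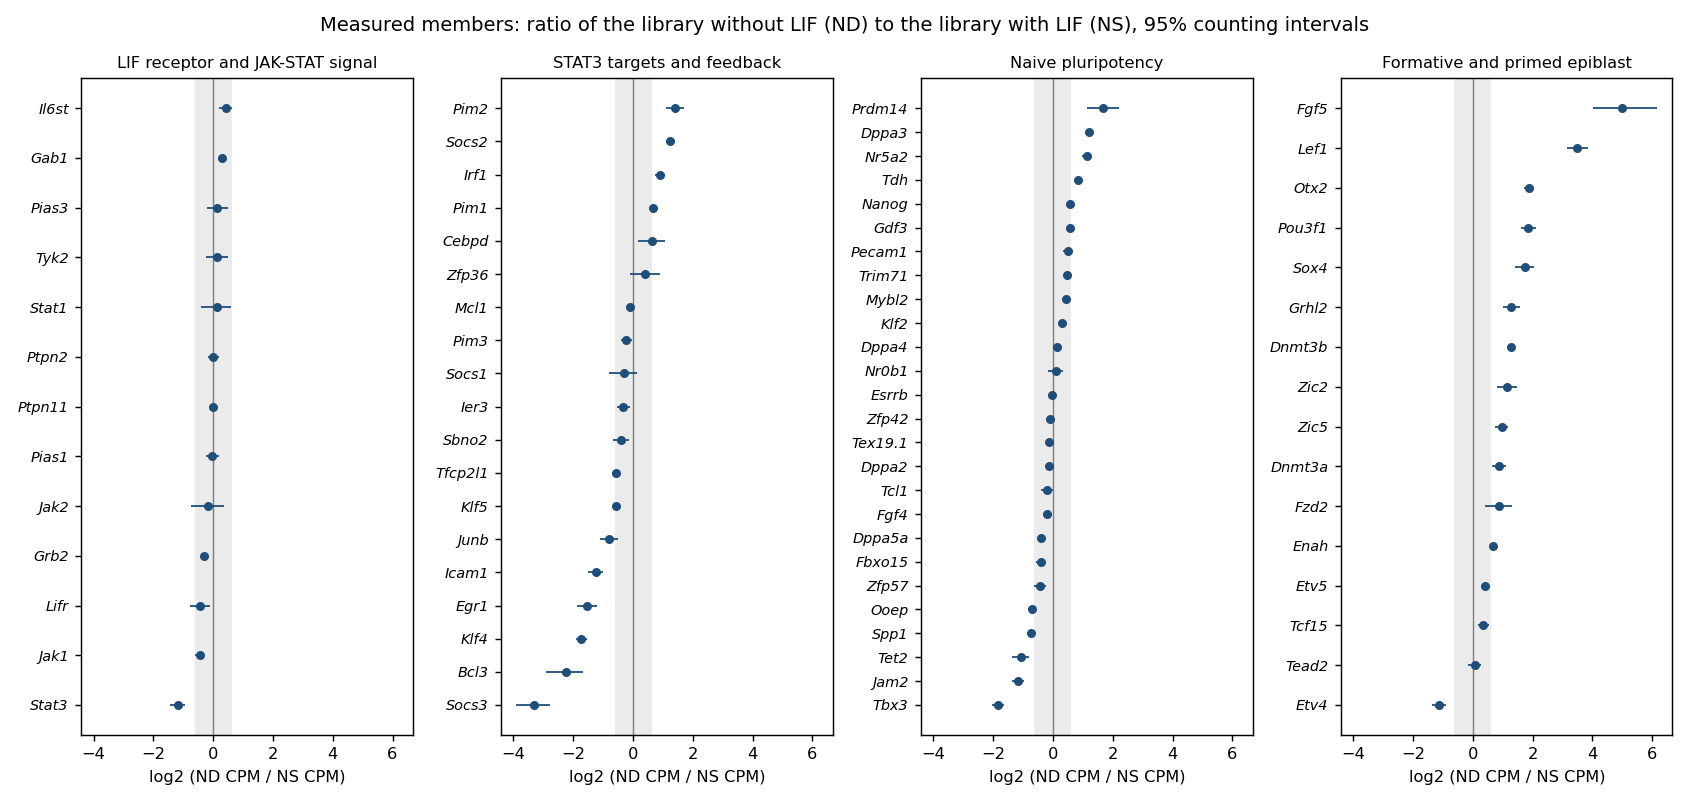
Log2 ratio of ND to NS CPM for each measured member of 4 lists (points), with 95% counting intervals (lines); the grey band spans 1.5-fold either way. The signalling chain clusters at 0 except Stat3 at -1.18, the STAT3 targets and naive genes spread on both sides, and 12 of 16 formative genes lie to the right of the band.

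STAT3 binds the motif TTCNNNGAA, and promoter windows of RefSeq (GRCm38.p6, 250 bases before to 50 after each start) were searched for it on both strands; the motif is its own reverse complement. It was found in 8.30% of 32851 windows. Of 9839 genes tested, 7875 had a window and 7.78% of them held the motif, against 8.39% of 441 matched genes that were lower in ND, 8.47% of 732 that were higher and 11.8% of 144 that were at least 2-fold lower. Among matched STAT3 list members 5 of 15 held it, 2 of them (Socs3 and Icam1) lower in ND and 1 (Irf1) higher. Stretches of 120 bases upstream of the start sites of these 3 genes are shown, 5′ to 3′ on the gene's strand, with the match in capitals, because they are the called members whose window holds the motif:
Socs3, chr11:117969456-117969575, minus strand: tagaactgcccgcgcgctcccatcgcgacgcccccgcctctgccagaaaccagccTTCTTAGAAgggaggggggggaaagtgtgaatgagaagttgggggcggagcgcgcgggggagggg
Icam1, chr9:21015820-21015939, plus strand: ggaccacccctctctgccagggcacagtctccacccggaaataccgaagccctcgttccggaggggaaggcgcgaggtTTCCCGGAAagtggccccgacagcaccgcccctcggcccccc
Irf1, chr11:53769869-53769988, plus strand: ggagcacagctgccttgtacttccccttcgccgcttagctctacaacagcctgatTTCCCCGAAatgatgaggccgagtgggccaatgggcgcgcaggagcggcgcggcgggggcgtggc
The match begins 154 bases before the RefSeq start in Socs3, 42 in Icam1 and 90 in Irf1. For Socs3 the stretch lies inside the gene span given above, which comes from another annotation (GENCODE) with an earlier start. A like motif therefore stands before the RefSeq start of a gene at 3.67 CPM in ND against 36.5 in NS and of one at 58.4 against 31.1. A match is a run of letters and was not tested as a binding site.

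Naive pluripotency genes were split. Of 26 measured, 5 were lower, 4 higher and 17 within 1.5-fold, with a median log2 ratio of -0.07. Over all genes 6.02% were lower and 9.45% higher. The naive factors Klf4 (log2 -1.73), Klf5 (-0.57) and Tfcp2l1 (-0.56) were counted in the STAT3 list only. They are not among the 26, so the split and the median leave them out. Tbx3 (ENSMUSG00000018604; chromosome 5, 119670669 to 119684724), a T-box factor downstream of LIF, stood at 105 CPM in NS, 29.6 in ND and 279.7, 326 and 411 with sorbitol, the lowest in ND by 3.55-fold. Jam2, a junctional adhesion molecule, was at 75.4 CPM in NS, 33.5 in ND and 49.7, 76.6 and 95 with sorbitol. Tet2, which oxidises methylated cytosine, was at 32.7 in NS, 15.6 in ND and 48.8, 61.1 and 63.3 CPM with sorbitol and was lowest in ND by 2.1-fold. Spp1 and Ooep were lower by 1.66-fold and 1.62-fold, although Ooep in the 300 mM library (67.8 CPM) stood below its ND level of 81.2. Dppa5a, an abundant RNA-binding protein of embryonic stem cells, was at 4855 CPM in NS and 3653 in ND, within 1.5-fold. Esrrb (91.8 and 89.3 CPM) and Zfp42, the gene whose promoter drives the reporter (562 and 524), were nearly level, and Klf2 was at 226 and 282.

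Higher naive members were the germline and methylation regulators Prdm14 and Dppa3, the nuclear receptor Nr5a2 and the threonine dehydrogenase Tdh. Dppa3 was at 58.5 CPM in NS, 136 in ND and 75, 82.4 and 88 with sorbitol, and ND was the highest by 1.55-fold. Prdm14 was low throughout, at 2.57 CPM in NS, 8.22 in ND (65 UMIs) and 4.23, 4.81 and 4.82 with sorbitol. Nr5a2 was at 31 CPM in NS, 68.2 in ND and 34.3, 56.6 and 61.7 with sorbitol, so the 300 mM library came close to ND. Nanog, at 123 and 185 CPM (log2 0.58, 0.49 to 0.68), lay on the bound of 1.5-fold and was not called.

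The core pluripotency list is shared by naive and primed cells. Of its 14 measured members 5 were higher and 1 lower, against 9.45% and 6.02% of all genes (median log2 0.52). Lin28a, an RNA-binding protein that blocks let-7 maturation, was at 38.7 CPM in NS, 81.5 in ND and 24.8, 21.8 and 29.3 with sorbitol, the highest in ND by 2.1-fold. Sall4 was at 81.8 CPM in NS and 162 in ND, but at 197, 208 and 317 with sorbitol, so all 3 of those libraries lay above ND. Foxd3, a forkhead factor of pluripotent cells, had 33 UMIs in NS and 77 in ND (1.49 and 9.74 CPM), and 3.47, 7.47 and 9.04 CPM with sorbitol. The lower member was Tdgf1, the Nodal co-receptor Cripto, at 419 CPM in NS, 197 in ND and 488, 452 and 529.5 with sorbitol.

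Of 16 measured formative and primed genes (22 listed), 12 were higher in ND and 1 lower, against 9.45% and 6.02% of all genes. The median log2 ratio was 1.05. For 3 of the 16 only ND reached 5 CPM. The growth factor Fgf5, the classical marker of the epiblast after implantation, was near 0 wherever LIF was present, at 0.406 CPM in NS (9 UMIs) and 0.325, 0.512 and 0.362 with sorbitol, and stood at 13 CPM in ND (103 UMIs). Lef1 (ENSMUSG00000027985; chromosome 3, 131110471 to 131224356), a DNA-binding partner of beta-catenin, was at 3.7 CPM in NS, 41.9 in ND and 0.868, 1.13 and 1.09 with sorbitol. Its log2 ratio to NS was 3.50 (3.15 to 3.87). Pou3f1 (Oct6), a POU factor of the formative epiblast, was at 12 CPM in NS, 43.8 in ND and 13.2, 7.88 and 8.08 with sorbitol. All 3 genes were therefore high in ND and low in each library with LIF. Lef1, Pou3f1, Zic2, Zic5 and Grhl2 were the 5 of 15 members averaging 5 CPM or more over all libraries that stood at least 1.5-fold above all 4.

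Other formative genes were high in some sorbitol libraries as well. Otx2 (ENSMUSG00000021848; chromosome 14, 48657677 to 48673819), a homeobox factor of early formative cells, was at 21.5 CPM in NS and 78.8 in ND (log2 1.87, 1.70 to 2.05), and at 24.5, 49.9 and 62.2 CPM at 200, 250 and 300 mM. Dnmt3b, a de novo DNA methyltransferase, was at 41.3 CPM in NS, 101 in ND and 89.1, 91 and 124 with sorbitol, and the 300 mM library exceeded ND. Dnmt3a (19.4 CPM in NS, 35.5 in ND, 36.8, 36.7 and 34.1 with sorbitol) did not set ND apart from the sorbitol libraries either. Sox4 was at 6.81 in NS, 22.8 in ND and 17.2, 15.3 and 17.1 CPM with sorbitol. Etv4, an ETS factor of FGF signalling, was the lower member (46.9 CPM in NS, 21.6 in ND, 31, 33.6 and 40.8 with sorbitol), while its relative Etv5 was at 249 and 328.

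Signalling pathways that act on the exit from the naive state differed by member. Among measured members, 4 in the FGF and ERK list, 3 in the Wnt list and 3 in the BMP list reached 5 CPM in ND only and so passed the minimum through the library where they were high. Calls over all genes leaned higher too (930 against 592, or 9.45% and 6.02% of those tested). In the FGF and ERK list 9 of 27 measured members were higher and 4 lower (median log2 0.40). These counts overlap others above, since Fgf5 is also counted in the formative list and Egr1 in the STAT3 list. Among receptors, Fgfr2 was at 3.34 CPM in NS, 13.3 in ND and 8.35, 7.58 and 8.68 with sorbitol, and Fgfr1 at 27.8 in NS, 42 in ND and 69.1, 58.9 and 70.7 with sorbitol. The ERK kinase Mapk3 and its activator Map2k2 were 1.58-fold and 1.54-fold higher in ND. Feedback genes split: the ERK phosphatase Dusp4 was at 5.19 CPM in NS, 16.1 in ND and 3.25, 3.99 and 4.7 with sorbitol, whereas Spry4 was lower (43.5 and 28.8; log2 -0.59, -0.81 to -0.38). Dusp6 (0.53) did not reach 1.5-fold.

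In the Wnt list (40 listed, median log2 0.30) 7 of 27 measured members were higher and 0 lower, against 9.45% and 6.02% of all genes. The receptor genes Fzd7 (3.97 CPM in NS, 10.6 in ND) and Lrp5 (5.73 and 12) and the factor Tcf7l2 (13.2 and 28) were among them. With sorbitol Tcf7l2 stood at 51.1, 53.8 and 79.1 CPM and Fzd7 at 12.8, 11.7 and 15.9, in each case above ND, and Lef1 was the only Wnt member at least 1.5-fold above all 4 libraries with LIF. Axin2, a feedback gene that reads out beta-catenin activity, was at 10.2 CPM in NS and 8.98 in ND (log2 -0.18, -0.58 to 0.21), an interval that holds 0. The inhibitor gene Nkd2 was just under the minimum (7.67 CPM in NS and 2.28 in ND) and so was not counted as lower.

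Of 18 measured Nodal and activin genes, 4 were higher and 2 lower (median log2 0.18), against 9.45% and 6.02% of all genes. The Nodal antagonists stood out: Lefty1 was at 69.8 CPM in NS, 152 in ND and 9.98, 15.3 and 14.6 with sorbitol, and Lefty2 at 70 in NS, 127 in ND and 65.4, 54 and 77.1 with sorbitol. Both were highest in ND, and for Lefty1 the sorbitol libraries lay far below NS. The ligand Nodal was at 21.3 CPM in NS and 30.9 in ND (log2 0.54, 0.31 to 0.76), under 1.5-fold. The receptor Acvr2b (0.75) and the SMAD co-repressor Skil (0.70) were the other higher members. The ligand gene Tgfb1 was lower (9.3 CPM in NS, 2.53 in ND from 20 UMIs, 6.4, 9.01 and 7.72 with sorbitol), as was Tdgf1, described above.

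BMP and Id genes were higher in 4 of 13 measured members and lower in 0 (median log2 0.47), against 9.45% and 6.02% of all genes. Id proteins bind and block basic helix-loop-helix factors and are targets of BMP signals. Id3 was at 18.5 CPM in NS, 58.6 in ND and 9.98, 16.9 and 17 with sorbitol, and Id4 at 4.83 in NS, 12.8 in ND and 3.25, 1.84 and 3.14 with sorbitol. Id2 followed at 31.6 in NS, 53.1 in ND and 11.1, 11.4 and 13.9 CPM with sorbitol, and these 3 were at least 1.5-fold above all 4 libraries with LIF. Id1 was also highest in ND but within 1.5-fold of NS (33.8 and 48.4 CPM, with 9.55, 6.14 and 8.68 under sorbitol). The ligand Bmp4 was at 28.7 and 33.9 CPM. The fourth higher member, the inhibitory Smad6, had few UMIs, and its log2 ratio of 0.69 turned to -0.74 among barcodes nearest in depth.

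Cyclin and Myc genes differed by member. Of 21 measured G1, Rb and Myc genes, 3 were higher and 1 lower (median log2 0.16). Ccnd1 (ENSMUSG00000070348; chromosome 7, 144929931 to 144939925), which encodes cyclin D1, was at 29.1 CPM in NS, 113 in ND and 7.16, 6.86 and 6.87 with sorbitol. Ccnd2 was at 30.2 in NS, 52.2 in ND and 12.5, 16.2 and 14.4 CPM with sorbitol, whereas Ccnd3 was at 163 in NS, 146 in ND and 200.1, 241 and 242 with sorbitol. Mycn (ENSMUSG00000037169; chromosome 12, 12936093 to 12941914), the Myc family member of the early embryo, was at 8.76 CPM in NS, 35.4 in ND and 5.21, 6.96 and 5.91 with sorbitol. Myc itself lay under the minimum, a mean of 5 CPM, with 0.993 CPM in NS and 6.83 in ND. Ccnd1, Ccnd2 and Mycn were each highest in ND by at least 1.5-fold. The Cdk inhibitor Cdkn2d was lower (22.8 and 13.5 CPM). S phase genes were higher in 2 of 26 (Mcm2, log2 0.62, and Ung, 1.01) and lower in 0, against 9.45% and 6.02% of all genes. All 26 G2 and M phase genes lay within 1.5-fold, from -0.48 for Ccnb2 to 0.28 for Cenpa. The mitotic topoisomerase Top2a, for example, was at 959 CPM in NS and 881 in ND.

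**Figure D4:**
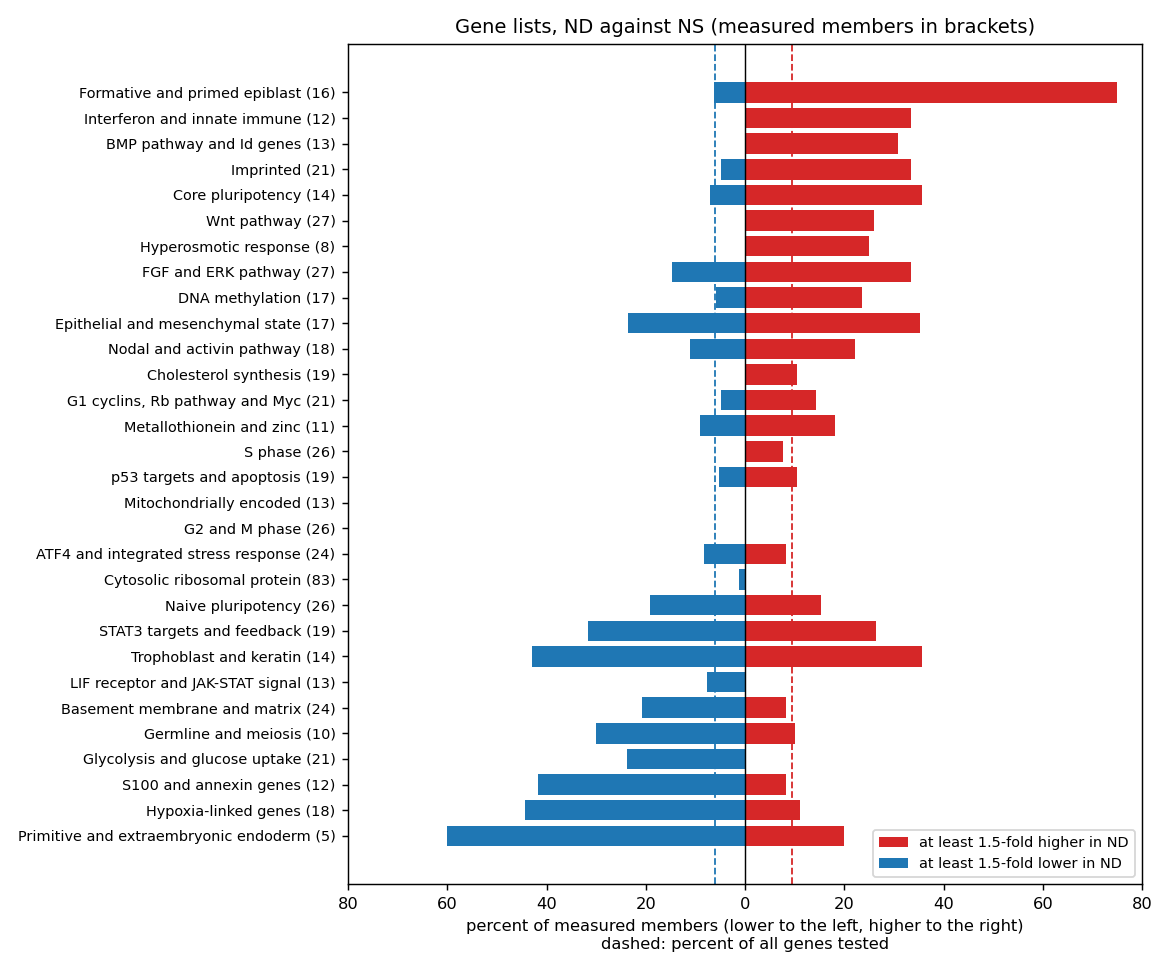
For each list with at least 5 measured members, the bars give the percent of measured members (number in brackets) at least 1.5-fold higher (red, right) or lower (blue, left) in ND; dashed lines mark the same percentages among all 9839 genes, 9.45% and 6.02%. The formative list has the longest bar to the right, 12 of 16, and the G2 and M phase list has none. The list with the longest bar to the left has only 5 measured members.

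A part of the genes of sugar metabolism was lower. Of 21 measured genes of glycolysis and glucose uptake, 5 were lower and 0 higher (median log2 -0.25), against 6.02% and 9.45% of all genes. Their summed level was 16620.5 CPM in NS and 13246 in ND. Hexokinase 2 (Hk2), which phosphorylates glucose, was at 1038 CPM in NS, 509 in ND and 971, 971 and 1092 with sorbitol. Hk1 (53.6 in NS, 26.2 in ND and 82.2, 77.7 and 83.1 CPM with sorbitol) and the aldolase Aldoc (69.9 in NS, 25.7 in ND and 67.9, 40.4 and 42.1 with sorbitol) were also at least 1.5-fold lower in ND than in all 4 libraries with LIF. Gpi1 (597 and 316 CPM, with 467, 364 and 395 under sorbitol) and the glucose transporter Slc2a1 (525 in NS, 339 in ND and 552, 486 and 507 with sorbitol) were also lower than in NS, with ND within 1.5-fold of the lowest sorbitol library. Gapdh, whose level is often used as a reference, was at 3559 CPM in NS, 2765 in ND and 1642, 2195 and 1443 with sorbitol. Outside the list, Upp1, which splits uridine into uracil and ribose phosphate, was at 878 CPM in NS, 283 in ND and 733, 1049.8 and 766 with sorbitol, one of the 10 largest losses in CPM when ribosomal protein genes and provisional symbols are left out.

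Hypoxia-linked genes overlap the sugar genes at Slc2a1. Of 18 measured members 8 were lower and 2 higher (median log2 -0.52), against 6.02% and 9.45% of all genes. Of these 18, 1 (Ero1l, 281 CPM in NS, 156 in ND and 631, 310.3 and 339.6 with sorbitol) was at least 1.5-fold below all 4 libraries with LIF. Ndufa4l2 was at 138 CPM in NS, 43 in ND and 54.1, 43.7 and 37.7 with sorbitol, and Higd1a, a mitochondrial protein, at 803 in NS, 404 in ND and 410.3, 337 and 359.9 with sorbitol. Depth and stress differ between NS and the sorbitol libraries, and their part in these values was not tested. The oxygen-sensitive factor Hif1a was nearly level (108 and 118 CPM). Ddit4, an inhibitor of mTORC1 signalling, was higher in ND (246 and 404 CPM, with 376, 296 and 219 under sorbitol), as was Epas1 (log2 0.68). S100 and annexin genes, which encode calcium-binding proteins, were lower in 5 of 12 and higher in 1. S100a6 was at 265 CPM in NS, 72 in ND and 791, 586 and 594 with sorbitol, the lowest in ND by 3.68-fold. Anxa2, by contrast, stood at 147 CPM in NS, 41.5 in ND and 46.2, 37.2 and 46.6 with sorbitol, so there NS was the library apart.

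Matrix and cell-state genes split within their lists. Among 24 measured basement membrane and matrix genes, 5 were lower and 2 higher, against 6.02% and 9.45% of all genes. The laminin chain Lama1 was at 19.3 CPM in NS, 4.55 in ND and 29.5, 43 and 40.6 with sorbitol, and the type IV collagen genes Col4a1 (34.3 in NS, 19.2 in ND and 59.4, 66.7 and 79.1 CPM with sorbitol) and Col4a2 (26.3 in NS, 15.7 in ND and 39.9, 46.3 and 45.1 with sorbitol) were lowest in ND as well. Sparc, a matrix glycoprotein, was at 212 in NS, 119 in ND and 259.7, 345 and 389 CPM with sorbitol. Col18a1 went the other way, at 75.4 CPM in NS, 223 in ND and 87.1, 104 and 107 with sorbitol. Lama1, Col4a1 and Sparc also stand in the primitive and extraembryonic endoderm list and were the 3 of its 5 measured members that were lower. In that list 1 member was higher, with a log2 ratio of 1.96. The defining factors of primitive endoderm, Gata6 (5.01 and 2.15 CPM) and Gata4 (4.2 and 2.15), were under the minimum, and the part of such cells in the matrix values was not tested.

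Of 17 measured genes of epithelial and mesenchymal state, 6 were higher and 4 lower, against 9.45% and 6.02% of all genes. Epithelial splicing and adhesion genes were among the higher ones: Esrp1 was at 12.5 CPM in NS, 32.4 in ND and 9.87, 8.09 and 7.24 with sorbitol, Cldn6 at 24.7 in NS, 39.7 in ND and 19.6, 17.5 and 21.9 with sorbitol, and Emb, an adhesion glycoprotein, at 29.2 in NS, 82.6 in ND and 20.9, 17.3 and 15 with sorbitol. Cdh1, which encodes E-cadherin, was at 67.7 and 78.8 CPM. The intermediate filament gene Vim, a mesenchymal marker, was lower (30.1 CPM in NS, 12.4 in ND, 20.6, 32.6 and 42.5 with sorbitol), but so were the simple epithelial keratins Krt8 (log2 -0.67) and Krt18 (-0.72). Fn1, a mesenchymal marker, was higher (91.7 and 148 CPM). Epithelial and mesenchymal genes thus stand on both sides. In the trophoblast and keratin list 5 of 14 were higher and 6 lower. Krt19 was at 81.3 CPM in NS, 16.9 in ND and 43.3, 59.5 and 43.7 with sorbitol, and Hand1, a factor of trophoblast and mesoderm, at 29.4 in NS, 4.81 in ND and 60.4, 47.2 and 60.2 with sorbitol, while Tfap2c was higher than in NS (47.3 and 109 CPM) but close to the sorbitol libraries (86.1, 101 and 103). The trophoblast determinant Cdx2 was at 0.0903 CPM in NS and 0.126 in ND.

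Other lineages had few measurable genes. Of 14 primitive streak and mesoderm genes 2 were measured, Hand1 and Eomes (11.3 and 17.5 CPM), and the streak factor T was at 0.181 and 0.253 CPM. Of 17 neuroectoderm genes 3 were measured: Sox11, a factor of neural and early epiblast cells, was higher (2.53 CPM in NS, 13.5 in ND, 6.51, 3.58 and 4.34 with sorbitol), while Pax6 (7.63 and 7.97) and the tubulin Tubb3 (49.6 and 53) were not. In definitive endoderm 1 of 10 was measured, Trh, with a log2 ratio of 0.40. Foxa2, under the minimum, had 30 UMIs in NS and 34 in ND (1.35 and 4.3 CPM).

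In absolute level, the mitochondrially encoded mt-Co3 (5975 CPM in NS, 8556 in ND) gained more than any gene outside that class and the ribosomal protein genes Rpl38 (11466 and 7501) and Rps28 (9638 and 6599) lost more than Malat1. Outside these classes and provisional symbols, the 10 largest gains included prothymosin (Ptma, 3861 and 4922 CPM), nucleolin (Ncl, 1839 and 2511), the poly(A)-binding protein gene Pabpc1 (1415 and 1951) and the ferritin heavy chain Fth1 (1348 and 1743), each under 1.5-fold. Actg1, which encodes cytoplasmic actin, was at 1232 CPM in NS, 2218 in ND and 999, 910.2 and 1173 with sorbitol, the highest in ND by 1.8-fold. Pfn1, the actin-binding protein profilin, was at 383 CPM in NS and 749 in ND, but higher still with sorbitol (844, 814 and 1277). By the same rule the largest losses were in Malat1, a nuclear non-coding RNA (14103 and 12548 CPM, with 22948, 22155 and 16622 under sorbitol), Dppa5a, Fau, Gapdh and the metallothionein Mt1 (2287 and 1509 CPM). Hist1h2ap, among the losses, and Ftl1-ps1, among the gains, have near-identical copies elsewhere in the genome, so their counts are uncertain.

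Several genes far from NS or from all 4 libraries with LIF belong to none of these groups. Trim2, a ubiquitin ligase gene, was at 14 CPM in NS, 56 in ND and 17.1, 20.2 and 24.8 with sorbitol. Apela, which encodes a secreted peptide of early embryos, was at 50.3 CPM in NS, 121 in ND and 26, 37.7 and 19.3 with sorbitol. The metalloprotease gene Adam19 (21 and 72.9 CPM, with 40, 29.6 and 39.6 under sorbitol) and the actin-binding calponin Cnn2 (38.2 and 89.3, with 24.3, 22.4 and 21.3) were highest in ND too. Ina, a neuronal intermediate filament gene, was at 39.9 CPM in NS, 84.1 in ND and 8.57, 8.4 and 9.41 with sorbitol, so NS stood between ND and the other libraries. Among the lowest, the cytochrome P450 gene Cyp2s1 was at 59.3 CPM in NS, 11.8 in ND and 35.7, 26.4 and 31.2 with sorbitol. Fbxo2, which encodes a ubiquitin ligase subunit that binds glycoproteins, was at 36.8 CPM in NS, 8.6 in ND and 105, 108 and 82.4 with sorbitol. Grin1, a subunit gene of the NMDA receptor, was at 40.2 CPM in NS, 12 in ND and 84.2, 90 and 67.8 with sorbitol, and Igfbp4, which binds insulin-like growth factors, at 32.9 in NS, 8.22 in ND and 17.4, 15.2 and 19.7 with sorbitol. All 4 were lowest in ND. The non-coding transcripts Platr10 (59.9 CPM in NS, 136 in ND) and Platr31 (39.9 and 6.96) went opposite ways.

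Single barcodes were read after thinning each to 500 UMIs, a depth that all 19240 reached. With no cell type among them that should lack these genes, a share of barcodes with a UMI is read as a level only. Socs3 was seen in 1.80% of NS barcodes (1.55% to 2.08%, exact binomial 95% interval) and 0.195% of ND barcodes (0.115% to 0.308%), and without thinning in 7.71% and 0.303%. Upp1 was seen in 33.8% and 13.1% (82.0% and 20.8% without thinning). Otx2 went the other way, with 1.03% in NS and 3.87% in ND (4.63% and 6.39% without thinning). For Lef1 the shares were 0.13% and 1.83% (0.80% and 3.46%). The order of each pair was the same as that of the CPM, which counts the same UMIs, so this is no further measurement.

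After thinning, the counts of most genes spread between barcodes about as random draws do. The variance over the mean, which is 1 for such draws, had a median of 1.003 in NS (3405 genes that averaged 0.02 UMIs or more) and 1.002 in ND (3628 genes), and exceeded 1.1 in 30 and 19 genes (0.881% and 0.524%). At means as low as 0.02 UMIs the value stays near 1 even where levels differ, so it cannot show that barcodes are alike. Malat1 (2.46 in NS, 2.31 in ND), H19 (1.53 and 1.33) and Mt1 (1.25 and 1.26) were among the highest, with Golga3 and Gfod2. Summed over the formative list, a barcode held 0.357 UMIs in NS and 0.585 in ND, and 70.0% and 57.1% of barcodes held none. The variance over the mean of that sum was 1.001 in NS and 1.08 in ND, and that of the STAT3 list 1.01 in both. The G2 and M phase list, whose genes change through the cell cycle, had sums with a variance over the mean of only 1.13 and 1.11. Whether the UMIs of a barcode come from 1 cell or from RNA shared between droplets was not tested.

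**Figure D5:**
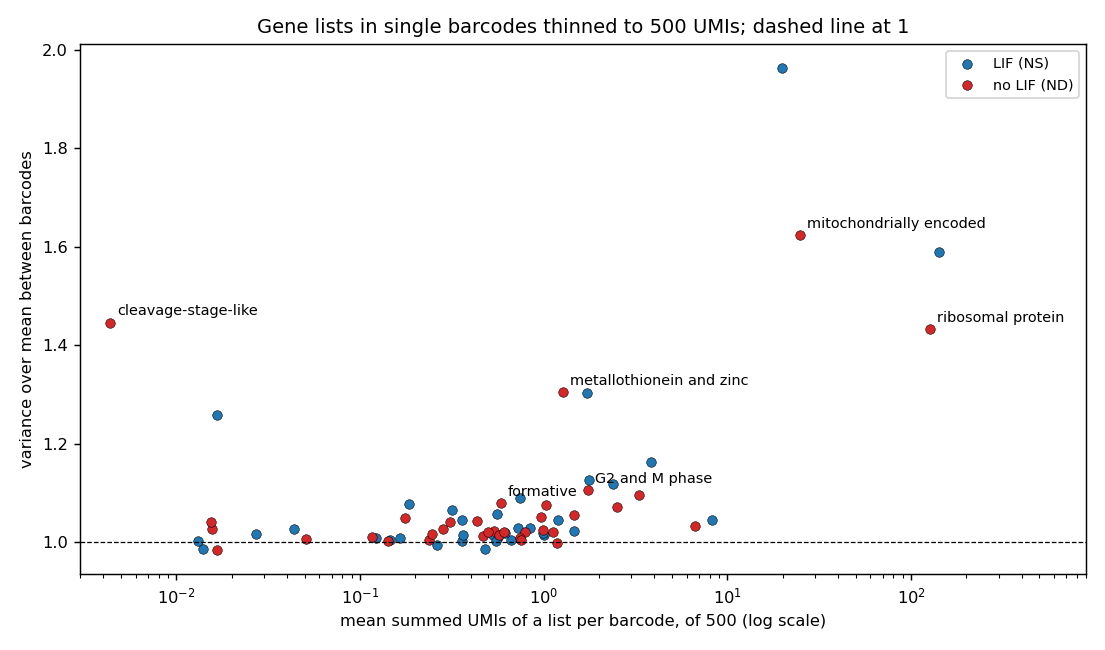
Each point is 1 gene list in NS (blue) or ND (red), with the mean summed UMIs of the list per barcode, of 500, on a log axis and the variance over the mean between barcodes on the vertical axis; the dashed line marks 1. Most lists lie near the line, the formative list reaches 1.08 in ND, and the mitochondrially encoded genes stand highest, at 1.96 in NS and 1.62 in ND.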

How the data were processed

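The authors deposited raw UMI counts per gene and barcode, and per the file headers they were made with Cell Ranger 6.0.1. The submitters' processing notes add the mm10 build, R 4.1.2 and Seurat 4.1.1. The labels' protocols name a Trizol lysis and a Lexogen 3' kit, while the matrices hold droplet barcodes, and which steps apply was not settled. For strand use and the choice of barcodes, the rule is not given in the sources used here.

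Barcodes with at least 500 genes were kept (NS 10000, ND 9240), with no doublet caller. Summed UMIs were scaled to CPM (Python 3.11.15, numpy 2.4.6, scipy 1.17.1, pandas 2.3.3). Log2 ratios have exact conditional binomial 95% intervals, levels exact Poisson ones; counts under 3 UMIs were set to a floor of 3. Coordinates are from GENCODE M21 (GRCm38). Named genes were the 10 highest and 10 lowest ratios (mean of at least 20 CPM), the 10 largest gains and losses in CPM and the 10 farthest above and below all 4 libraries with LIF (mean of at least 20 CPM), all without mitochondrial and ribosomal protein genes and provisional symbols, and up to 4 members a list (all measured members of 5 lists); others were named for their role, after their values were seen. Some genes that met these rules are not reported here. The members and the 35 lists were chosen with earlier results of these data known. On simulated counts (9794 genes, 200 changed 2-fold), 99% of changed and 0.219% of unchanged genes were called at 1.5-fold. Both simulated libraries were drawn from the NS levels with counting error only. These shares hold no difference of batch or culture between libraries, so they give no rate of false calls for the real comparison.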

Additional observations from a re-analysis of the deposited data

How the results depend on the processing

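No paired analysis was possible because each condition has 1 library, and for the same reason no replicate could be left out. The intervals cover counting error only, and the depths of NS and ND differ. Many named genes were picked for large ratios in these same counts, and every setting below re-uses all or part of the same UMIs. Median-of-ratios scaling and CPM without mitochondrial and ribosomal protein genes shift every log2 ratio alike, by too little to turn a gene past 1.5-fold. A pseudocount on both sides cannot turn one either, so directions kept under these settings were fixed beforehand. Of 132 named genes past 1.5-fold, all kept their direction with median-of-ratios scaling (which shifts log2 ratios by -0.05), with CPM taken without mitochondrial and ribosomal protein genes, without a filter on barcodes, with barcodes weighted equally, without the 5% of barcodes with most UMIs and with a pseudocount of 5 CPM; 127, 129, 132, 132, 132 and 118 of them stayed past 1.5-fold.

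Genes higher in ND numbered 425 with a minimum of 20 CPM, 2086 with none, 512 with the pseudocount and 240 at 2-fold. Genes lower numbered 208, 2353, 324 and 207 in the same order. Among barcodes with closer depths (NS median 1938 UMIs, ND 977), 1333 genes were higher and 914 lower; 131 of the 132 named genes kept their direction, Smad6 turning to -0.74, and 125 stayed past 1.5-fold. Barcodes with at least 1000 genes (8 in ND, 15539 UMIs) gave 540 higher and 97 lower genes, 0 lower STAT3 targets and 2 higher formative genes, because few genes there pass the floor of 3 UMIs; 22 of 23 named genes with a value kept their direction, and Trp53 (0.72) turned to -0.18. With a minimum of 20 CPM 7 formative genes were higher. Genes with ND above all 4 libraries with LIF numbered 85 with that minimum and 53 at 2-fold, and genes below 120 and 138. Median-of-ratios scaling over all libraries shifted log2 levels relative to NS by -0.02 in ND. The shifts were -0.22, -0.24 and -0.26 at 200, 250 and 300 mM sorbitol. Levels in ND set beside those with sorbitol, and these counts, therefore depend on the scaling. The median of the primitive streak and mesoderm list turned to 0.33 without a minimum.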

Other observations

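Across the whole table the largest ratios lay outside most of the lists above, and the genes in this paragraph were chosen after their values were seen. Next to Fgf5 and Lef1, the higher genes included Car4, a membrane carbonic anhydrase (0.903 CPM in NS, 15.6 in ND, 1.41, 2.35 and 1.21 at 200, 250 and 300 mM sorbitol), Slc40a1, the iron exporter ferroportin (2.44 in NS, 25.4 in ND and 6.29, 4.1 and 3.98 with sorbitol) and Cfc1 (2.12 in NS, 16.6 in ND and 0.868, 0.41 and 0.362 with sorbitol). Cfc1 encodes Cryptic, a Nodal co-receptor of the same family as the product of Tdgf1, which was lower in ND. At the other end stood Alox12b, a lipoxygenase (13.2 CPM in NS, 0.885 in ND, 8.03, 8.19 and 4.58 with sorbitol), Kdelr3 (16.1 in NS, 1.64 in ND and 9.44, 6.55 and 7.24 with sorbitol) and Cox4i2, an alternative subunit of cytochrome oxidase (19.5 in NS, 3.04 in ND and 10.3, 5.94 and 4.34 with sorbitol).

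Imprinted genes, expressed from 1 parental copy, had 7 higher and 1 lower of 21 measured members (median log2 0.14). Mest was at 18.2 CPM in NS, 54 in ND and 30.2, 33.6 and 46.3 with sorbitol, and Impact at 128 in NS, 267 in ND and 109.7, 115 and 177 with sorbitol. The non-coding RNA Meg3 was at 77.8 in NS, 156 in ND and 98.4, 73 and 72.2 CPM with sorbitol, and Rian, of the same cluster, at 16.4 in NS, 34.3 in ND and 30.3, 22.2 and 24.2 with sorbitol. H19, far higher with sorbitol (943, 794 and 932 CPM), was at 139 in NS and 169 in ND. Among germline and meiosis genes 3 of 10 were lower and 1 higher, with Sycp3, of the synaptonemal complex, at 107 CPM in NS, 59.4 in ND and 27.9, 16.6 and 14.1 with sorbitol. In the ATF4 and integrated stress response list 2 of 24 were higher and 2 lower, near the shares over all genes (9.45% and 6.02%). Among its members, the cystine transporter Slc7a11 was at 10.2 CPM in NS, 24.2 in ND and 3.8, 4.1 and 6.51 with sorbitol, and the stress factor Ddit3 at 57.2 in NS, 28.6 in ND and 118, 72.7 and 61.3 with sorbitol. Of 12 measured interferon genes 4 were higher and 0 lower (median log2 -0.01), with the RNA sensor Ddx58 at 3.47 CPM in NS, 10.9 in ND and 6.51, 10.6 and 12.5 with sorbitol. Of these 12, 2 reached 5 CPM in ND only, Ddx58 among them, and so passed the minimum through the library where they were high. Of the 19 cleavage-stage-like genes 0 reached the minimum, and their summed level was 30.6 CPM in NS and 9.49 in ND.

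The counts of other lists stand beside shares over all genes of 9.45% higher and 6.02% lower. Cholesterol synthesis genes were higher in 2 of 19 measured members, hyperosmotic response genes in 2 of 8, metallothionein and zinc genes in 2 of 11 with 1 lower, p53 targets in 2 of 19 with 1 lower, and DNA methylation genes in 4 of 17 with 1 lower. Mitochondrially encoded genes had a median log2 ratio of 0.30 with 0 of 13 past 1.5-fold, and ribosomal protein genes one of -0.11 with 1 of 83 lower. Of 3 measured fibroblast genes Tagln was higher (4.24 and 15.8 CPM) and Twist1 lower (6.59 and 3.54).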
